A study of Mus musculus with 59 samples.

Results

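Mouse mammary tumor pieces that carried skeletal muscle RNA were set against pieces that carried almost none. All 59 tumors of the series were ranked by a muscle score, the mean of log2(value + 1) over 4 genes of the skeletal muscle fibre, Acta1, Ckm, Mylpf and Tnnt3, where a value is a deposited normalized read count. The 15 tumors with the highest score and the 15 with the lowest were compared, and a slope on the score was fitted in the 29 tumors of neither group. Because measured values of these 4 genes made the groups, their difference between the groups is a description, and the same holds for other genes of muscle fibres, which move with them. The mice were PyMT (+/-), on the line B6.FVB-Tg(MMTV-PyVT)634Mul/LellJ, so every group carried the polyoma middle T oncogene, which the mouse mammary tumor virus promoter drives in the mammary epithelium. The labelled treatments were vehicle (n = 19), methylparaben (n = 20) and propylparaben (n = 20), and the parabens are preservative esters of para-hydroxybenzoic acid. The top 15 held 7 methylparaben, 6 propylparaben and 2 vehicle tumors, and the bottom 15 held 6, 5 and 4. Total RNA was taken from a pulverized frozen part of each tumor, and dose, exposure time, age and batch are not in the labels. The labels do not say that the tumors came from separate animals, so a p-value measures the spread between these samples.

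Skeletal muscle fibres contract when thick filaments of myosin pull on thin filaments of actin, troponin and tropomyosin that are anchored at the Z disc. Calcium released from the sarcoplasmic reticulum starts each contraction, and creatine kinase and glycogen breakdown resupply its energy. Mouse mammary glands lie under the skin next to a thin sheet of skin muscle and the muscles of the chest and abdominal wall. A bulk piece of tumor can therefore hold other tissue, and fewer cells of a type and less RNA per cell cannot be told apart in such data.

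The 4 genes of the score stand for the thin filament (Acta1, skeletal muscle actin, and Tnnt3, fast troponin T), the thick filament (Mylpf, a fast myosin light chain) and energy supply (Ckm, muscle creatine kinase). Their spans in GENCODE M21 on GRCm38 were chr8:123891769-123894751 for Acta1, chr7:19404776-19422841 for Ckm, chr7:127208890-127214298 for Mylpf and chr7:142498836-142516009 for Tnnt3. The gene for the fast myosin heavy chain IIb, Myh4, lies at chr11:67238029-67260446. The 250 bases before the first listed RefSeq start (GRCm38.p6) are shown because these genes varied together across the tumors and regulators of muscle genes are known to bind such motifs. Capitals mark matches on either strand to the E-box CANNTG, which myogenic factors such as MyoD bind, to the CArG box, which serum response factor binds, and to the MEF2 motif. The windows, read 5′ to 3′ on the gene's strand, are chr8:123894776-123895025 (minus strand) for Acta1, chr7:19410844-19411093 (plus) for Ckm, chr7:127211358-127211607 (plus) for Mylpf and chr11:67237562-67237811 (plus) for Myh4. The Acta1 and Myh4 windows lie outside the GENCODE gene, before it, and the Ckm and Mylpf windows lie inside the GENCODE span, which begins further upstream.
Acta1: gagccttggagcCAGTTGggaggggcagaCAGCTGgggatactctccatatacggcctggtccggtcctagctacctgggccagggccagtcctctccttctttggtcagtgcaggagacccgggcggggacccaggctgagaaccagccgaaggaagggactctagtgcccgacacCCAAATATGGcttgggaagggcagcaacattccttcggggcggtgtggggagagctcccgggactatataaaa
Ckm: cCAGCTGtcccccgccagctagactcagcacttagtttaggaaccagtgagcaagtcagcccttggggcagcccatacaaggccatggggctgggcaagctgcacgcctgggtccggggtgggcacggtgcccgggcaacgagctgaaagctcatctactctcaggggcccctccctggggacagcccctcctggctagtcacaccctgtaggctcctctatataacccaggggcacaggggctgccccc
Mylpf: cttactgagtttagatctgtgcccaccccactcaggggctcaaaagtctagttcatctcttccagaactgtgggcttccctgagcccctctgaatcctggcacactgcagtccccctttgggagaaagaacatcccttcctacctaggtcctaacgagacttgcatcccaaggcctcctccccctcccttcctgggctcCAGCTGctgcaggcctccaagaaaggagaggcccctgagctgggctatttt
Myh4: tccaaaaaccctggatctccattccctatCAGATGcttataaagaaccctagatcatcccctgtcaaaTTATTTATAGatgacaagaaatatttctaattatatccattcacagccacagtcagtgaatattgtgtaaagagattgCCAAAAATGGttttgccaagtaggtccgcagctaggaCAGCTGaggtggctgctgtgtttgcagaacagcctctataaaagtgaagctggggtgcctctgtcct

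Each of the 4 windows held the E-box variant CAGCTG, which is contained in CANNTG. Over the 27025 RefSeq promoters of the same length, 12.8% held CAGCTG, 66% held any CANNTG, 3.01% the MEF2 motif and 1.4% the CArG box. Of the muscle and fibre-type genes listed for the comparison, 90 had an entry, and 41.1% of these held CAGCTG, 86.7% any CANNTG, 16.7% the MEF2 motif and 6.67% the CArG box. Acta1 and Myh4 each had a CArG box, and Myh4 a MEF2 motif at bases -182 to -173 from the start. A match in letters is not a measured binding site.

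Muscle RNA was graded, not present or absent, across the upper part of the ranking. The score ran from 5.64 to 9.69 in the top 15 (median 6.27) and from 0.14 to 0.77 in the bottom 15 (median 0.47). At the upper edge, vehicle replicate 3 had a score of 5.642 and stood just inside, and vehicle replicate 2 had 5.638 and stood just outside. At the lower edge, methylparaben replicate 2 had 0.767 and stood inside, and methylparaben replicate 3 had 0.783 and stood outside. The scores broke between rank 33 at 2.27 and rank 34 at 1.25, so 33 tumors had a score above 2.

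**Figure D1:**
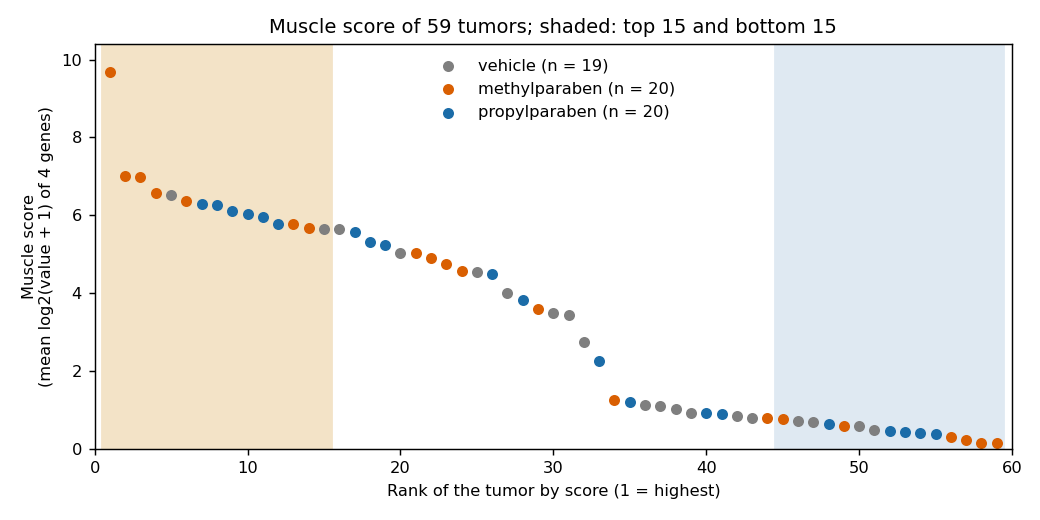
Muscle score of each of the 59 tumors (vertical axis, mean log2(value + 1) of Acta1, Ckm, Mylpf and Tnnt3) against its rank (horizontal axis), coloured by treatment, with the top 15 and bottom 15 shaded. One methylparaben tumor at 9.69 stands above the rest, and the points step down between ranks 33 and 34.

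Acta1 had a normalized count between 125 and 1827 in the top 15 (median 195) and between 0 and 2.70 in the bottom 15 (median 1.71). Ckm lay between 28.8 and 652 (median 61.9) against 0 to 0.467 (median 0). Mylpf lay between 27.9 and 470 (median 46.6) against 0 to 0.863 (median 0.467). Tnnt3 lay between 35.6 and 819 (median 56.9) against 0 to 0.951 (median 0). The groups did not overlap for any of the 4, as the ranking requires. The bottom 15 were not free of muscle reads: Acta1 had at least 1 read in 13 of them, 47 reads in all, Mylpf had 15 reads in 10 tumors, Ckm 5 reads in 5, and Tnnt3 3 reads in 2.

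Methylparaben replicate 5 stood apart from the other top tumors. It held the highest value among the 59 tumors for 73 of the 84 muscle-list genes that could be tested. Genes of the muscle lists together took 2.33% of its reads on genes, against 0.298% to 0.600% in the other 14 top tumors and 0.105% to 0.158% in the bottom 15. The same library had the highest Ucp1, the uncoupling protein of brown fat (746, against 0 in 13 of the other top tumors and 46.2 in methylparaben replicate 11), and the highest Adipoq, the fat cell hormone adiponectin (1147). Its mitochondrial share of reads was 11.5%, and that of the other 14 lay between 2.78% and 4.33%. The main counts and several list medians are given with and without it.

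No library measure taken here passed a test between the groups. Reads on genes were 1269789 to 1810878 in the top 15 and 1166502 to 1864236 in the bottom 15. The 6 library measures were reads on genes, genes with a read, and the shares of reads outside features, in several places, mitochondrial and intronic. None passed (two-sided permutation tests of 100000 resamples, smallest adjusted p = 0.792). The share in several places was lower in the top group, by 0.55 points, and between 20 tumors a side by 0.61 (same test, adjusted p = 0.282). No pair of libraries of one treatment agreed within sampling noise (lowest chi-square per degree of freedom 2.07 over 9623 genes). Methylparaben replicate 1, in the bottom 15, had the highest intronic ratio of the 59, 73.8 intronic reads per 100 reads on genes.

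Across the transcriptome, 14554 genes with a mean of at least 1 over the 30 tumors were tested with treatment as a covariate, using limma on log2(value + 1) with Benjamini-Hochberg adjustment. In the top 15, 140 genes were higher (0.962%) and 7 were lower (0.0481%) at an adjusted p under 0.05, 1.01% in all, and without methylparaben replicate 5 the counts were 122 (0.842%) and 7 (0.0483%) of 14486 genes, 0.891% in all. Leaving out any 1 of the 30 tumors gave 122 to 198 higher and 3 to 26 lower genes. The lower count was 26 without vehicle replicate 5, 11 without propylparaben replicate 10 or 15, 4 without methylparaben replicate 1 or propylparaben replicate 16 or 20, and 3 without vehicle replicate 12, methylparaben replicate 19 or propylparaben replicate 2. Of the 119 genes in 8 muscle lists apart from the score genes, 84 passed the filter, 55 of these were among the higher and none among the lower, and the median log2 difference was 1.62, against 0.01 over all genes tested. A gene that is high only in muscle could pass the filter only through the top tumors, so this count supports nothing beyond the ranking. Every top tumor lay above every bottom tumor for 39 of the 84, and for 67 of all 14554 genes (0.46%). Of the 84, 7 had no read in any bottom tumor, and with these set at a floor of 3 reads over the group the median was 1.69. The strand setting of the counting is not given in the sources used here, and 36 of the 84 overlap a gene on the other strand, among them Myh1, Tnnc2, Neb, Ttn, Atp2a1, Ryr1, Mb and Dmd. Acta1, Ckm and Tnnt3 of the score do too. Without strand, reads from such a gene and its partner cannot be told apart.

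The thick filament, thin filament and Z disc lists had the largest median log2 differences of the muscle lists. Acta1, Tnnt3 and Mylpf of the score are filament genes, so this order is a description of the ranking. Of the thick filament list, 10 of 15 genes passed the filter and 9 were among the higher (background 0.962%), with a median log2 difference of 3.39. Myh4, the fast myosin heavy chain IIb, had 110 to 2453 in the top 15 (median 186) and 0 to 2.16 in the bottom 15 (median 0.497), a log2 difference of 7.08 ± 0.29 (SE). Myl1, the essential fast light chain, had 29.7 to 497 (median 52.4) against 0 to 3.62 (median 0.414). Both genes separated the groups without overlap. Of the thin filament list, 10 of 14 passed the filter and 9 were among the higher. Tnnc2 and Tnni2, the calcium-binding and inhibitory subunits of fast troponin, had medians of 78.6 and 48.99 in the top 15 and 0.383 and 0.581 in the bottom 15. Neb, the nebulin ruler of the thin filament, had 33.5 to 685 (median 76.9) against 0 to 2.15 (median 1.15). Ttn, the giant spring that spans the half-sarcomere, had 104 to 2010 (median 282) against 0.366 to 8.45 (median 3.31), and it led the Z disc and titin list, where 12 of 14 tested genes were among the higher. Xirp2, which binds actin at the junctions of fibres, had 35.2 to 387 (median 57.9) against 0 to 4.31 (median 0), and Des, the intermediate filament desmin, 7.20 to 97.6 (median 10.8) against 0 to 1.45 (median 0.732).

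**Figure D2:**
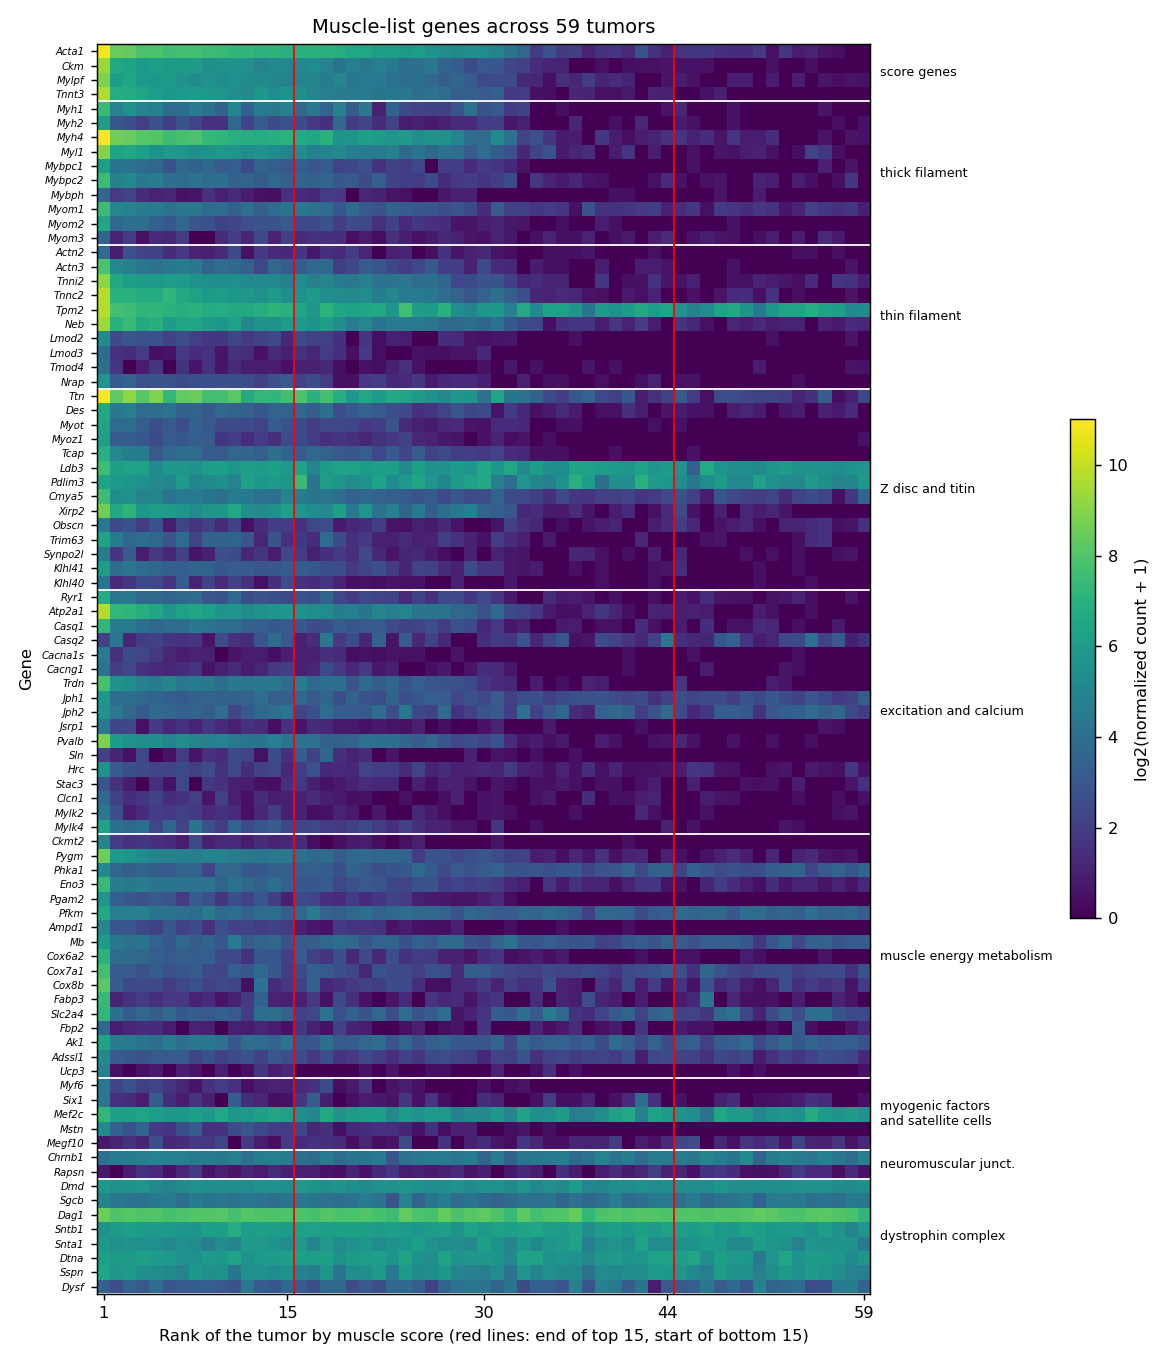
Level of the 4 score genes and 83 of the 84 tested genes of the muscle lists (rows, grouped by list) in the 59 tumors ordered by muscle score (columns), as log2(normalized count + 1). Most rows fade from left to right, and rows such as Tpm2, Ldb3, Mef2c, Dag1 and Dmd are bright in all tumors.

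The excitation and calcium list and the energy list had smaller medians, 1.56 and 1.06, with a split inside the energy list. Of the excitation and calcium list, 14 of 17 tested genes were among the higher (background 0.962%). Of the 84 tested muscle-list genes, 51 had a mean under 1 in the bottom 15. The counts of this list and the energy list are therefore a description of the ranking. Atp2a1, the calcium pump of fast fibres, had 39.8 to 915 (median 73.6) against 0 to 0.935 (median 0), and Pvalb, the calcium buffer parvalbumin, 17.6 to 448 (median 30.2) against 0 to 1.29 (median 0). Ryr1, the calcium release channel, had 4.18 to 112 (median 11.8) against 0 to 1.64 (median 0.432). Of the energy list, 8 of 17 were among the higher. Pygm, muscle glycogen phosphorylase, had 18.6 to 376 (median 27.03) against 0 to 1.73 (median 0.484). Pgam2, the muscle form of phosphoglycerate mutase, had no read in any bottom tumor and was at least 84.3-fold higher in the top 15, against a floor of 3 reads over the bottom group (at least 61.3-fold without methylparaben replicate 5). Mb, the oxygen carrier myoglobin, overlapped between the groups at 5.58 to 65.1 (median 10.3) against 2.31 to 11.6 (median 7.74), with a log2 difference of 0.66 ± 0.23 (SE).

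Muscle-list genes that were also high in the bottom 15 had smaller differences. Tpm2, a tropomyosin shared with smooth muscle and myoepithelium, had 98.4 to 887 (median 130) in the top 15 and 20.0 to 114 (median 55.9) in the bottom 15, a log2 difference of 1.31 ± 0.24 (SE). Of the dystrophin complex list, which links the fibre's cytoskeleton to the matrix, 9 genes were tested and the median log2 difference was 0.04. Dmd, dystrophin itself, lay between 28.9 and 57.8 in the top 15 (median 43.7) and between 36.8 and 51.8 in the bottom 15 (median 42.2). The neuromuscular junction list, the receptor and its anchors under the nerve ending, had 2 of 10 genes above the filter and none among the higher. Its receptor subunit Chrnb1 had medians of 23.5 and 22.6.

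The list of myogenic factors and satellite cells, the stem cells of muscle, had 5 of 12 genes above the filter. Of these, 2 were among the higher (background 0.962%), a description of the ranking. These were Myf6, the myogenic factor of mature fibres, at 0.419 to 19.9 (median 1.96), and Mstn, the growth inhibitor myostatin that fibres secrete, at 1.95 to 39.8 (median 4.90). Neither had a read in any bottom tumor. Against a floor of 3 reads over the bottom group, Myf6 was at least 34.7-fold and Mstn at least 74.5-fold higher (at least 26.03-fold and 57.4-fold without methylparaben replicate 5). The satellite cell and early myogenic genes Pax7, Myf5, Myod1 and Myog reached at most 2.09 in any of the 30 tumors and fell under the filter. Mef2c, which endothelial and immune cells also express, had medians of 73.6 and 50.1.

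The muscle in the top 15 carried markers of fast fibres, which the ranking favours because Mylpf and Tnnt3 of the score are fast-fibre genes. All 12 genes of the fast fibre list passed the filter and were among the higher (0.962% of all genes), with no overlap between the groups (0.46% of all genes) and a median log2 difference of 4.73 (4.52 without methylparaben replicate 5). The score holds fast-fibre genes and 11 of the 12 had a mean under 1 in the bottom 15, so nothing is read from this count. Of the 10 genes of the slow fibre list, 3 passed the filter and none was among the higher. Members that other tissues express, such as Atp2a2 and Tpm3, carry the summed value of that list, 211.8 to 305 in the top 15 and 199.5 to 280 in the bottom 15. Per kilobase of annotated exon, Myh4 had a level of 18.3 to 408 in the top 15 (median 30.9), Myh1, the heavy chain IIx, 1.45 to 28.1 (median 3.39), and Myh2, the heavy chain IIa, 0.273 to 9.68 (median 0.751). Myh7, the slow heavy chain, had a read in 2 of the 15, at 0.462 per kilobase in methylparaben replicate 5 and 0.170 in propylparaben replicate 15. Of the summed level per kilobase of these 4 adult myosins, Myh4 took 75.7% to 93.4% in the top 15 (median 90.1%). Myh1 took 5.49% to 17.4% (median 8.25%) and Myh2 0.906% to 6.26% (median 1.68%). These shares describe tumors chosen by a score that holds fast-fibre genes. Propylparaben replicate 15 had the lowest Myh4 share, and methylparaben replicate 11 was next at 80.2%. In the 18 tumors at ranks 16 to 33, the Myh4 share was wider, 43.7% to 96.2% (median 82.9%). The embryonic and neonatal heavy chains Myh3 and Myh8 stayed at or under 0.162 and 0.125 per kilobase in the top 15. Both are known to return in regenerating fibres.

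**Figure D3:**
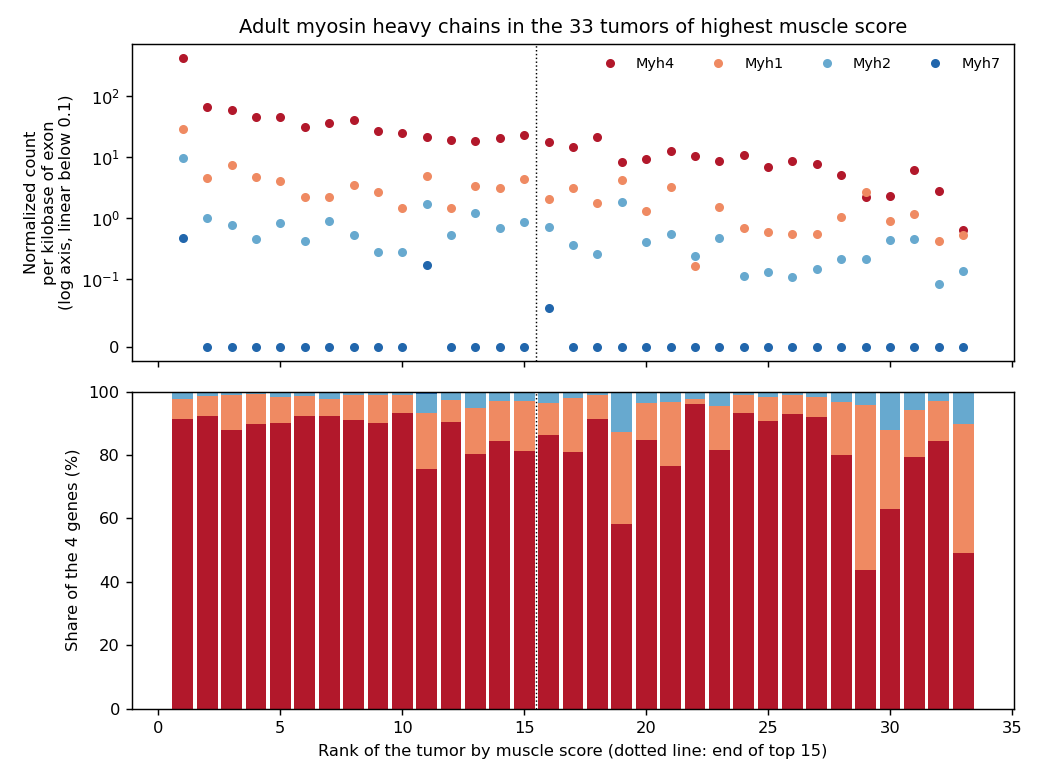
Level per kilobase of exon (upper panel, log axis that is linear below 0.1) and share (lower panel, percent of the 4 genes) of the adult myosin heavy chains Myh4, Myh1, Myh2 and Myh7 in the 33 tumors with the highest muscle score, ordered by rank. Myh4 is the tallest share in all of the top 15, between 75.7% and 93.4%, and Myh7 is at 0 in 13 of them.

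Reads inside introns, which come largely from unspliced RNA, were counted apart from exons, and the ranking did not use them, though they come from the tumors it sorted. Of 14306 genes whose introns had a mean of at least 1, 35 were higher in the top 15 (0.245%) and 0 were lower (limma with Benjamini-Hochberg adjustment). At an unadjusted p under 0.05, 311 were lower, and edgeR's test on recovered reads called 34 higher and 0 lower. The introns of 18 of the 63 tested muscle-list genes were among the 35. Muscle introns near 0 in the bottom tumors could pass the filter only through the top tumors, so this count supports nothing beyond the ranking. Intronic counts of Xirp2 ran from 103 to 1249 in the top 15 (median 208) and from 0 to 12.4 in the bottom 15 (median 2.07). Those of Ttn ran from 168 to 3242 (median 393) against 0 to 24.8 (median 5.33), a log2 difference of 6.29 ± 0.40 (SE). Those of Tnnt3 ran from 15.7 to 756 (median 31.1) against 0 to 1.46 (median 0). The groups did not overlap for these 3 genes, a description, since they are muscle genes and Tnnt3 is a gene of the score. How many of all tested introns separated the groups in this way was not counted. Introns of Ckm did not pass, at 0 to 6.67 against 0 to 4.63, and Acta1 had no intronic count in either group. Outside the muscle lists, and chosen after its values were seen, Meg3, an imprinted noncoding RNA gene, had higher introns by 0.92 ± 0.19 (SE, adjusted p = 0.0149), and its exonic difference of 0.87 ± 0.24 had an adjusted p of 0.0775 (0.0406 without methylparaben replicate 5). Without methylparaben replicate 5, 36 introns were higher.

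The 29 tumors in neither group show how genes vary with the score between the ends of the ranking. For each gene, log2(value + 1) was fitted against the score with treatment as a covariate, over 14407 genes. With the score, 49 genes rose (0.34%) and 0 fell (limma with Benjamini-Hochberg adjustment), and 172 had a negative slope at an unadjusted p under 0.05. On recovered reads, edgeR's quasi-likelihood test called 48 higher and 2 lower, and DESeq2 52 and 0. The score is the measure that made the ranking, so the slopes of the 4 score genes and of other muscle genes are a description. Of the 61 other muscle-list genes fitted there, 33 were among the 49 and none had a called negative slope. The slope was 1.23 ± 0.06 (SE) on the log2 scale per unit of score for Myh4, 1.09 ± 0.04 for Tnnc2, 1.04 ± 0.06 for Ttn and 0.82 ± 0.04 for Pvalb. The 12 fast fibre genes were among the 49. Of the 49 genes, 48 were also among the 140. The exception was Syne2, a nuclear envelope protein gene, at 0.11 ± 0.03 per unit of score (adjusted p = 0.0475), whose difference between top and bottom was -0.01. Among the 18 of the 29 with a score above 2, a subset chosen after seeing the data, 32 genes rose and 1 fell.

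**Figure D4:**
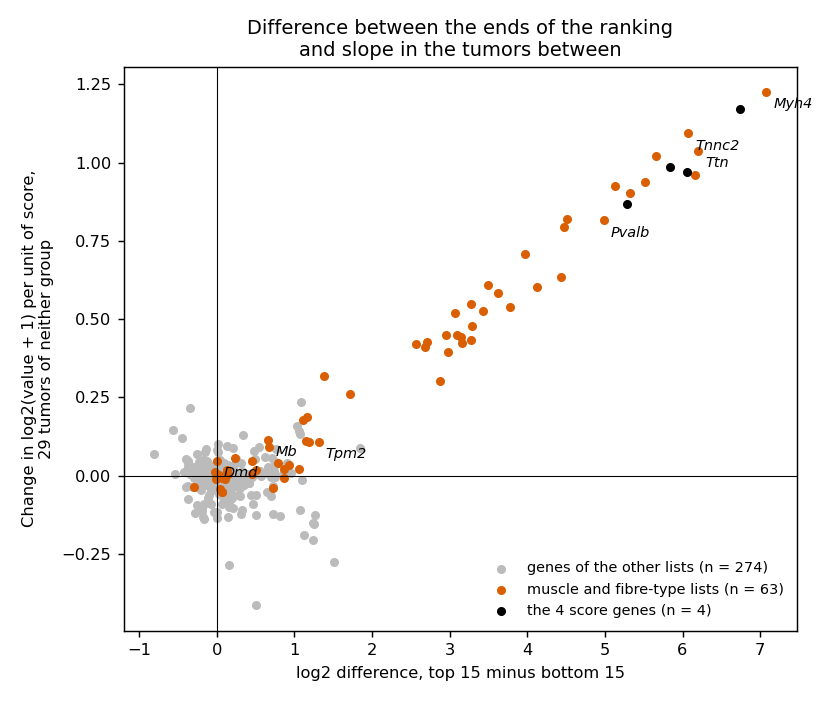
Change in log2(value + 1) per unit of muscle score in the 29 tumors of neither group (vertical axis) against the log2 difference between the top 15 and bottom 15 (horizontal axis), for 63 genes of the muscle and fibre-type lists, the 4 score genes and 274 genes of other lists. Muscle genes lie along a line that ends at Myh4 at 7.08 and 1.23, and the other genes gather near 0 on the vertical axis.

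Outside the score, muscle and fibre-type lists, 14464 genes were tested between the top and bottom 15, and the ranking used the values of none of them. Of these, 81 were higher and 7 were lower (limma, adjusted p under 0.05, where 0.962% and 0.0481% of all genes were called). The lists do not hold every muscle gene, and 39 of the 81 higher genes had a mean under 1 in the bottom 15, and 10 of the 81 had no read there, so these passed the filter through the top tumors and their count supports nothing. Without methylparaben replicate 5, 68 of the 88 calls held, edgeR's test on recovered reads called 76 of the 88, and 53 held with an adipocyte score as a covariate. Of the 88, 11 also passed in the 29 tumors between, 8 of them with a mean under 1 in the bottom 15. Among the 23 with a mean of at least 10, 18 were higher and 5 lower.

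Among the 18 with a mean of at least 10, the 3 with the largest differences are known from muscle. Klhl31, a kelch protein of muscle, had 5.08 to 134 in the top 15 (median 12.1) and 0 to 0.861 in the bottom 15 (median 0), a log2 difference of 3.75 ± 0.27 (SE), and it passed the filter through the top tumors. Fhl1, a LIM-domain protein of muscle, had 24.7 to 122 (median 34.7) against 2.59 to 12.3 (median 6.62), and rose by 2.42 ± 0.19. Hspb6, a small heat shock protein of muscle, had 14.5 to 145 (median 22.6) against 4.18 to 12.8 (median 6.66), and rose by 1.75 ± 0.21. None of these 3 overlapped between the groups, which held for 0.46% of all genes. In the 29 tumors between, their slopes were 0.57, 0.38 and 0.24 per unit of score. The differences and slopes of these 3 are a description, since the score is itself a muscle measure. Synm, the intermediate filament protein synemin, rose by 1.00 ± 0.24 and Pde4dip, the scaffold myomegalin, by 0.78 ± 0.15, and both overlapped between the groups.

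The other genes named by size of difference overlapped between the groups. C1qtnf3, a secreted protein of the adiponectin family, had 11.3 to 82.4 in the top 15 (median 39.8) and 3.49 to 72.8 in the bottom 15 (median 16.2), and rose by 1.40 ± 0.33 (limma adjusted p = 0.0201). Tppp3, a tubulin-binding protein, had 9.79 to 46.05 (median 27.5) against 6.98 to 24.0 (median 10.9), and rose by 1.00 ± 0.18 (adjusted p = 0.00066). Cacna2d1, a calcium channel subunit, rose by 1.31 ± 0.31, Mmp19, a matrix metalloproteinase, by 1.14 ± 0.28, Adgrd1, an adhesion receptor, by 1.13 ± 0.29, Col5a3, a fibrillar collagen chain, by 1.02 ± 0.26, and Tnfaip6, a hyaluronan-binding protein, by 0.82 ± 0.21. Tppp3, C1qtnf3 and Pde4dip kept their call whichever of the 30 tumors was left out, by edgeR and with an adipocyte score as a covariate. Over the settings tried, C1qtnf3 lost the call in 5, Pde4dip in 3 and Tppp3 in 2. Cacna2d1 kept it whichever tumor was left out, and had an adjusted p of 0.0905 by edgeR and 0.132 with that covariate. Synm, Mmp19, Tnfaip6, Col5a3 and Adgrd1 lost the call with that covariate, and Col5a3 and Adgrd1 also by edgeR. Synm kept it in 26 of the 30 fits, Mmp19 in 17, Tnfaip6 in 14, Col5a3 in 12 and Adgrd1 in 11. Without methylparaben replicate 5, Mmp19, Col5a3 and Adgrd1 lost the call. The highest adjusted p was 0.104, for Adgrd1 without vehicle replicate 12. In the tumors of neither group, no gene named in this paragraph had a called slope on the score.

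Egln3, the prolyl hydroxylase that hypoxia induces, led the 5 lower genes. It had 32.2 to 60.0 in the top 15 (median 39.9) and 40.4 to 240 in the bottom 15 (median 79.1), and fell by 0.80 ± 0.19 on the log2 scale (limma adjusted p = 0.0271). All 15 top tumors lay below the bottom median. Cda, cytidine deaminase, fell by 0.65 ± 0.16, 2310009B15Rik by 0.47 ± 0.11, Cxcr4, the chemokine receptor, by 0.40 ± 0.10, and Itga6, an integrin of the basement membrane, by 0.24 ± 0.06. Of these, 2310009B15Rik kept its call in all 30 fits that left out 1 tumor, Egln3 and Itga6 in 24, Cxcr4 in 20 and Cda in 14. Cda lost its call without methylparaben replicate 5. The highest adjusted p was 0.0861 for Egln3, without vehicle replicate 12. With an adipocyte score as a covariate, none of these 5 kept its call: the differences were -0.57 for Egln3, -0.52 for Cda, -0.39 for 2310009B15Rik, -0.34 for Cxcr4 and -0.19 for Itga6, with adjusted p from 0.115 to 0.235. The other 11 tested genes of the hypoxia list did not pass, and its median log2 difference was -0.21. In the tumors of neither group, the median slope of the hypoxia list was 0.04 per unit of score. None of the 5 lower genes had a called slope there.

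No gene of the fat, fibroblast, endothelial or macrophage lists passed the test by limma. Of 15 white adipocyte genes 0 were called by limma, edgeR or DESeq2, and 6 had an unadjusted limma p under 0.05. All 15 differences were above 0, and their median was 1.07 (0.77 without methylparaben replicate 5). Their summed value was 195 to 19213 in the top 15 (median 1005) and 100.2 to 2424 in the bottom 15 (median 364), so the groups overlapped. Adipoq had 6.36 to 1147 (median 68.5) against 0.484 to 178 (median 28.05), a log2 difference of 1.27 ± 0.62 (SE, limma adjusted p = 0.53). Car3, carbonic anhydrase of fat and muscle, differed by 1.85 ± 0.62 (adjusted p = 0.252). Ucp1 was at 0 in 13 of the 15 top tumors. By edgeR it passed as higher (adjusted p = 0.00611), and without methylparaben replicate 5 its adjusted p was 0.101. Dio2, the deiodinase of brown fat, differed by 1.10 ± 0.31 (adjusted p = 0.101).

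Of 14 fibroblast genes, 0 passed by limma or edgeR, 1, Fn1, passed by DESeq2 and 12 had an unadjusted limma p under 0.05. All 14 differences were above 0, where 7553 of all 14554 genes were, with a median of 0.73 (0.79 without methylparaben replicate 5). Col1a1, the main fibrillar collagen, had 355 to 1212 in the top 15 (median 669) and 104 to 1127 in the bottom 15 (median 384), a difference of 0.74 ± 0.25 (limma adjusted p = 0.281). Fn1, fibronectin, differed by 0.62 ± 0.18 (adjusted p = 0.0932), Mfap5 by 0.91 ± 0.26 (adjusted p = 0.097) and Dpt by 1.06 ± 0.32 (adjusted p = 0.138). The endothelial list had 0 of 14 called, 4 with an unadjusted p under 0.05 and a median of 0.29 (0.21 without methylparaben replicate 5). Its Pecam1 differed by 0.39 ± 0.13 (adjusted p = 0.24) and Tie1 by 0.77 ± 0.21 (adjusted p = 0.0893). Of 11 macrophage genes 0 were called and 6 had an unadjusted p under 0.05 (median 0.32), and Adgre1, the marker F4/80, had medians of 41.9 and 27.9. Cd3e of T cells had medians of 0.930 and 1.15.

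Markers of other neighbouring tissues were raised in a few tumors of either group. The skin list had 0 of 9 genes called and a median of 0.46, and its sum had medians of 20.1 and 17.6. It reached 932 in methylparaben replicate 10 of the top 15, with Krt10, a keratin of the outer skin, at 620 there, and 743 in methylparaben replicate 20 of the bottom 15. It was 220 in methylparaben replicate 6, 161 in replicate 7 and 97.5 in replicate 15 of the top 15, and 105 in vehicle replicate 8 of the bottom 15. The salivary gland list reached 210 in methylparaben replicate 7 137 in methylparaben replicate 5 and 59.99 in vehicle replicate 12, against a top median of 6.04. The B and plasma cell list reached 487 in propylparaben replicate 19 and 382 in methylparaben replicate 15, against a top median of 11.2. Of the peripheral nerve list 0 of 9 passed by limma (median 0.15). Of the tendon list 0 of 5 passed (median 0.16). Its Thbs4 differed by 1.07 ± 0.31 (limma adjusted p = 0.118), and Tnmd, tenomodulin, was at or under 1.08 in all top tumors. The cardiac list had 7 of 9 genes under the filter, Actc1, cardiac actin, reached at most 2.66 in the 30 tumors, and 4 of the list were at 0 in all 30. The smooth muscle and pericyte list had 0 of 12 called (median -0.04), with Acta2, smooth muscle actin, at medians of 233 and 288 and Pdgfrb of pericytes at a difference of 0.50 ± 0.15 (adjusted p = 0.14). The part of these tissues in the differences above was not tested, apart from the adipocyte covariate.

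**Figure D5:**
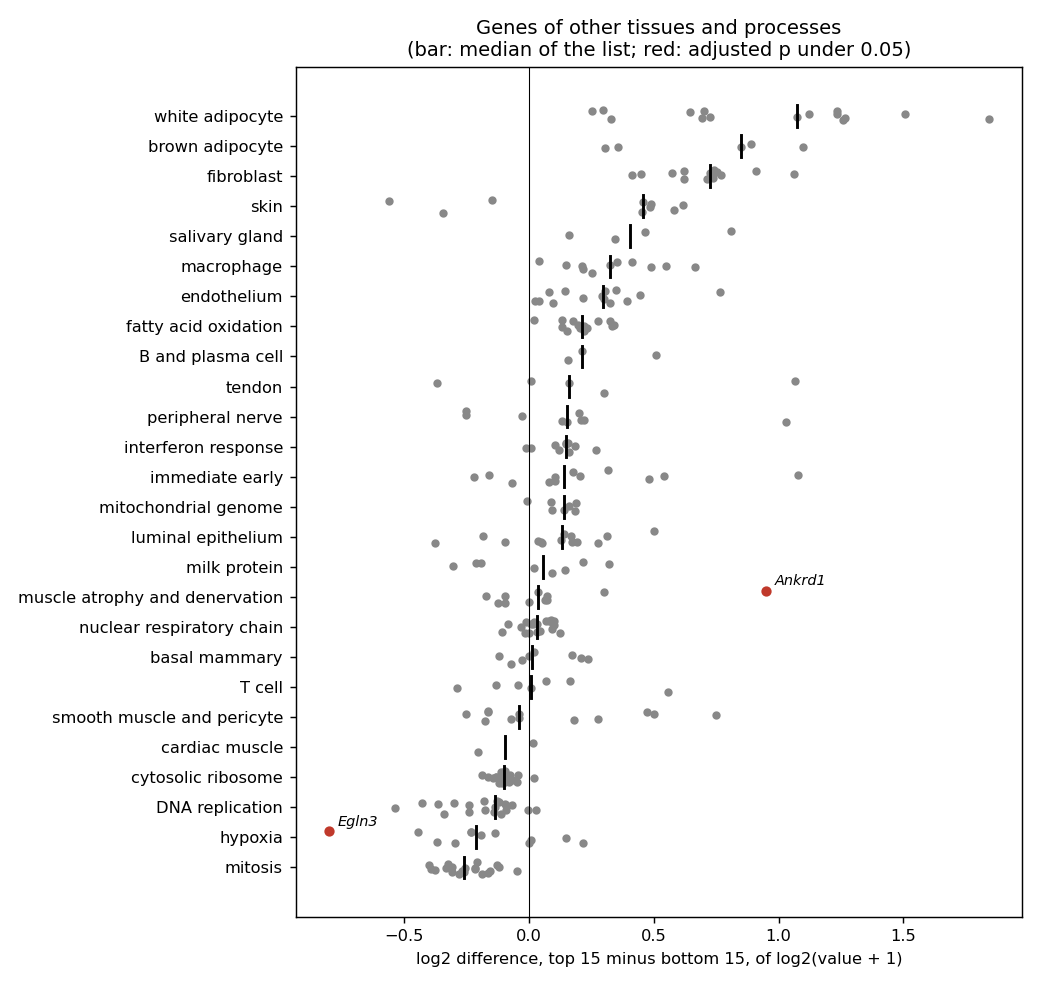
Log2 difference between the top 15 and bottom 15 (horizontal axis) of each tested gene in 26 lists of other tissues and processes (rows, ordered by median), with the list's median as a bar and genes at an adjusted p under 0.05 in red. Ankrd1 at 0.95 and Egln3 at -0.80 are the red points, and white adipocyte and fibroblast points lie right of 0.

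No gene of the luminal epithelium, from which these tumors arise, passed the test. Of 14 on the list, 0 were called by limma, edgeR or DESeq2 and 0 had an unadjusted limma p under 0.05 (median 0.13). Epcam, the epithelial adhesion molecule, had 318 to 582 in the top 15 (median 453) and 235 to 511 in the bottom 15 (median 394), and Krt8 and Krt18, the luminal keratins, had medians of 77.7 and 167 against 75.5 and 140. Esr1, Pgr and Gata3, receptors and a regulator of luminal identity, differed by 0.50 ± 0.25, 0.31 ± 0.37 and 0.13 ± 0.14 (limma adjusted p of 0.541, 0.845 and 0.83). All 20 mitosis genes had a difference below 0, where 7553 of all 14554 genes were above 0, with a median of -0.26 (-0.21 without methylparaben replicate 5). Of these 0 passed by limma, edgeR or DESeq2, and 3 had an unadjusted limma p under 0.05. Their summed value was 415 to 1184 in the top 15 (median 783) and 553 to 2048 in the bottom 15 (median 949). Ttk and Cdc20, regulators of chromosome segregation, differed by -0.40 ± 0.18 and -0.38 ± 0.18 (adjusted p of 0.464 and 0.53), and the proliferation marker Mki67 by -0.05 ± 0.13. The DNA replication list had 0 of 20 called (median -0.14), with Rfc4 at -0.54 ± 0.18 and Rrm2 at -0.34 ± 0.13 (adjusted p of 0.231 and 0.349). In the 29 tumors between, 0 genes of these 3 lists passed and their median slopes were -0.02, 0.02 and 0.01 per unit of score.

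Of 11 tested genes known from wasting or denervated muscle, 1 was called as higher, where 0.962% of all genes were. This was Ankrd1, a stress-induced repeat protein, at 2.66 to 23.5 in the top 15 (median 6.59) against 1.90 to 8.99 in the bottom 15 (median 3.48), a rise of 0.95 ± 0.24 (limma adjusted p = 0.0456). It kept its call in 10 of the 30 fits that left out 1 tumor, and had no called slope in the tumors of neither group. Fbxo32, the ubiquitin ligase atrogin, had medians of 199 and 201. Trim63, the ligase MuRF1 and a member of the Z disc list, had 1.27 to 79.0 (median 9.75) against 0 to 1.99 (median 0). The stress hormone Gdf15 had medians of 3.32 and 4.18, and Fgf21 and Il6 reached at most 0.412 and 1.96 in the 30 tumors and were not tested.

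Treatment and muscle content were compared over all 59 tumors, and both contrasts share the vehicle tumors. The median score was 1.12 in vehicle, 4.66 in methylparaben and 4.15 in propylparaben tumors, with ranges of 0.47 to 6.52, 0.14 to 9.69 and 0.38 to 6.28. A score above 2 was found in 9 of 19 vehicle, 12 of 20 methylparaben and 12 of 20 propylparaben tumors. Against vehicle, the 4 score genes differed by 0.92 to 1.27 (log2) under methylparaben, with limma adjusted p from 0.274 to 0.569, and by 0.78 to 0.90 under propylparaben, with adjusted p from 0.542 to 0.667. Of these tests 0 passed, where 1.32% and 0.0276% of 14487 genes were called. Without methylparaben replicate 5, the methylparaben differences were 0.60 to 0.99. By edgeR's test on recovered reads, Mylpf and Tnnt3 passed for methylparaben at 2.23 and 2.47 (adjusted p of 0.0459 and 0.0443), and Acta1 and Ckm did not (0.0863 and 0.0605). Without methylparaben replicate 5, edgeR's differences for Mylpf and Tnnt3 were 1.29 and 1.24 (adjusted p of 0.23 and 0.287). Within single treatments, the top against bottom contrast called 27 genes higher among 6 vehicle tumors, 2 of the top and 4 of the bottom. It called 77 among 13 methylparaben and 70 among 11 propylparaben tumors. The ranking places muscle genes higher within any treatment, so these counts are a description and no replication.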

How the data were processed

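Total RNA from 59 PyMT mammary tumors was sequenced, and the values analysed here are the authors' deposited signal tables of normalized counts per gene and per gene's introns. Per the submitters' processing notes, bcl2fastq 2.20.0.422, STAR 2.6.1d, HTSeq 0.10.0 and the build GRCm38 were used, while no source used here names the strand setting or annotation. The tables hold 55421 gene rows, 33282 intron rows and 5 summary rows, which stayed out of every test. Every value was a whole number of reads times a factor for its library (100% within 1e-06), so reads were recovered for depth and for count tests.

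Groups came from the labels and the muscle score. The members and gene lists were chosen with earlier results of these data known. Tests used limma 3.58.1 (trend) on log2(value + 1) in R 4.3.3, with treatment as a covariate, features with a mean of at least 1 and Benjamini-Hochberg adjustment over all features tested. Fold changes are on that scale, which understates low genes, and their median standard error was 0.137. The same steps were tested on simulated counts. Named genes were the score genes, members of the muscle and fibre lists, up to 12 called genes a direction with a mean of at least 10 outside them, up to 3 members with the smallest p of each other list, and a fixed set of marker genes. Alternatives included edgeR 4.0.16 and DESeq2 1.42.0 on recovered reads, other pseudocounts, filters, covariates, group sizes and score genes, and leaving out each tumor. A few genes are not reported here.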

Additional observations from a re-analysis of the deposited data

Results flagged for a closer look

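Library measures and the score were compared among the top or bottom tumors of 1 treatment with Dixon's test. By chance it flags about 1 in 20 for each library measure in a group, so some flags can arise by chance over several measures. The score made the groups, so that rate does not hold for it and its flag is a description. By this test, 3 libraries stood apart from their group. Methylparaben replicate 5, of 7 top methylparaben tumors, had a score of 9.69, a mitochondrial share of 11.5% of reads, 1271085 reads on genes and 13.8% of reads in several places. Methylparaben replicate 1, of 6 bottom methylparaben tumors, had a mitochondrial share of 5.32%, 35.5% of reads outside features and 73.8 intronic reads per 100 reads on genes. Without it, 131 genes were higher and 4 lower in the top tumors. Vehicle replicate 4, of 4 bottom vehicle tumors, had 20.6% of reads outside features.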

How the results depend on the processing

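No paired analysis was possible because the replicate numbers follow the order of the samples and pair no tumors across treatments. Of the settings tried for the main counts and values, 94 kept their direction and side of the threshold (counts within 1.5 times). Of the rest, 21 counts moved further, 3 differences turned sign and 2 gained the threshold. For the top against bottom contrast (140 higher, 7 lower), a mean of at least 10 gave 33 higher and 2 lower, where fewer genes were tested. Vehicle tumors alone gave 27 and 0, methylparaben tumors alone 77 and 0, and propylparaben tumors alone 70 and 4, with fewer samples. The lower count was 15 by DESeq2, 12 with no treatment covariate, 1 with an adipocyte score as a covariate, 11 with the score taken without Mylpf and 2 without Tnnt3. Leaving out 1 tumor gave 122 to 198 higher and 3 to 26 lower. For the slope in the 29 tumors (49 and 0), no filter gave 75 and 2, a mean of at least 10 gave 13 higher, edgeR gave 2 lower, and the 18 tumors above 2 gave 32 and 1. For introns (35 and 0), a mean of at least 10 gave 18 higher, and 20 tumors a side gave 2 lower. By edgeR, the methylparaben difference was 2.23 for Mylpf and 2.47 for Tnnt3, past the threshold, and 1.29 and 1.24, not past it, without methylparaben replicate 5, a setting chosen after seeing the data. Between 20 tumors a side, reads on genes differed by 8880 and the intronic ratio by 1.53, and between 10 a side the share outside features by -0.44, with the sign turned each time. Uncalled log2 differences also turned sign. With vehicle tumors alone these were Tnfaip6 (-0.074, called in all 30 tumors), Krt8 (-0.013), Acta2 (1.31) and Krt10 (-1.21). With methylparaben tumors alone they were Pgr (-0.070), Cd3e (-0.061) and Fbxo32 (0.16), and with propylparaben tumors alone Mki67 (0.10), Gata3 (-0.094) and Gdf15 (0.68). With 20 tumors a side they were Mki67 (0.026), Pgr (-0.062), Cd3e (-0.030) and Gdf15 (0.14), and with the adipocyte score Mki67 (0.063) and Gdf15 (0.14). With the score taken without Tnnt3 they were Mki67 (0.0016) and Gdf15 (0.10), without Ckm Gata3 (-0.0020) and Gdf15 (0.080), and without Mylpf Gdf15 (0.029). With a pseudocount of 10 they were Cd3e (-0.0065) and Gdf15 (0.0085), by edgeR Cd3e (-0.019) and Gdf15 (0.11, and 0.106 without methylparaben replicate 5), and by DESeq2 Cd3e (-0.045) and Gdf15 (0.12). No treatment covariate gave Acta2 0.071, and a continuous score over 59 tumors gave Gdf15 0.0074. Leaving out 1 tumor gave Acta2 -0.17 to 0.064, Cd3e -0.081 to 0.12, Gdf15 -0.14 to 0.059 and Dmd -0.029 to 0.039. The cause was not tested in these cases. Of the single-gene settings, 1495 were counted as kept, 136 lost the threshold, 13 gained it, 30 turned sign and 127 moved without a test. Kept means the same direction and side, except for score, muscle and fibre-type genes between top and bottom. Those were kept when the difference moved by less than the standard deviation among the top tumors. A turned sign of an uncalled gene among them was not counted. Depth limits genes near 1 normalized count, since a library held 1166502 reads or more on genes.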
